A study of Mus musculus with 4 samples.

Results

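Toll-like receptors are sensors of microbial molecules, and the 10 genes described here are 7 of these receptors (Tlr1, Tlr2, Tlr3, Tlr4, Tlr6, Tlr7 and Tlr9), the adaptor Myd88, the co-receptor Cd14 and the kinase Irak4. Members were all probe sets of the array that the platform annotation assigns to exactly 1 of these symbols, which gave 13 of 22626 probe sets and 9 of 12393 named genes. Irak4, the first kinase recruited by MyD88, had no such probe set, so its expression was not analysed here. The symbols of all 13 probe sets matched the RefSeq mouse gene table.

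The cells were mouse Langerhans cells, the dendritic cells of the epidermis, sorted to 95% purity and measured on 4 one-colour Affymetrix arrays. The 2 TCDD samples came from mice given 10 µg TCDD (2,3,7,8-tetrachlorodibenzo-p-dioxin, which activates the aryl hydrocarbon receptor, AhR) in an injected volume of 100 µl, with oil as vehicle and injection into the peritoneum. The controls are named as such, control 1 with 100 µl of DMSO and olive oil, and all cells were isolated after 24 h. TCDD 2 and control 2 were from back skin, and the labels of TCDD 1 and control 1 name no site; the arrays are grouped by this label into 2 preparations. The controls carry different experiment dates and the TCDD samples none, so that arrays of 1 preparation share an experiment is assumed, and site and experiment cannot be told apart between the controls. The description of control 2 names a control and its title no treatment, but its treatment protocol names TCDD, and the description was followed. Strain, sex, age and any pooling of animals are not given in the labels, so the spread between arrays may be technical.

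Toll-like receptors at the cell surface bind parts of the microbial wall, and those in endosomes bind nucleic acids. All of the receptors here except TLR3 signal through MyD88 and the IRAK kinases to NF-kB and the interferon regulatory factors, while TLR3 uses the adaptor TRIF. Langerhans cells lie close to the microbes of the skin surface, and signalling of this kind can bring dendritic cells to mature.

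Of the 9 Langerhans cell markers, 8 read at least 975.7 on each array: Epcam, an adhesion molecule, read at least 7541, Csf1r, a growth factor receptor, at least 8469, and Cd207 (langerin) ranged from 2120 to 7211. The exception was Itgax, the integrin CD11c, at 169.6 and 115.3 on TCDD 1 and 2, against 185.4 and 230.7 on controls 1 and 2. The 9 measured monocyte and granulocyte markers summed to 995 and 1042 on TCDD 1 and 2, against 1024 and 1162 on controls 1 and 2, and S100a8 and S100a9, which mark neutrophils, read at most 26.4 and 74.1, while Csf3r, a granulocyte growth factor receptor, reached 312 on control 1. The 6 measured B cell and plasmacytoid markers summed to 1443 and 1618 on the TCDD arrays, against 1381 and 1251 on the controls. Of its B cell genes, Cd79a and Pax5 read at most 124.3 and 38. Ms4a1 read 155.7 and 177.8 on the TCDD arrays, against 139.8 and 156 on the controls. Cd79b read 55.1 and 40 on the TCDD arrays, against 11.3 and 9 on the controls. Of the same list, Tcf4, a transcription factor of plasmacytoid dendritic cells, read 877.3 and 1011.7 on the TCDD arrays, against 894.6 and 897.3 on the controls, and Bst2, an interferon-inducible surface protein, 259.4 and 276.7 on the TCDD arrays, against 172.9 and 43.2 on the controls. The 7 measured T cell markers summed to 1328 on TCDD 1 and 605 on TCDD 2, against 648 on control 1 and 1995 on control 2. RNA quality also differed: the actin control probe sets gave a 3′ to 5′ signal ratio of 3.48 on TCDD 1 and 7.71 on TCDD 2, against 49.7 on control 1 and 4.64 on control 2.

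All values below are MAS5 signals, a linear intensity scaled to the same trimmed mean on each array. No detection calls were used, so the signal of 65 probe sets for chemosensory receptors (Olfr, Vmn1r and Vmn2r genes), which skin cells are not expected to use, served as a yardstick. Their 95th percentile was 244 on TCDD 1 and 249 on TCDD 2, against 226 on control 1 and 290 on control 2. Probe sets differ in affinity, so a signal under this yardstick does not show that a gene was silent.

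Most Toll-like receptor probe sets stayed at or under this yardstick, whereas the co-receptor and the adaptor did not. Of the 13 member probe sets, 2 (15.4%) exceeded the chemosensory 95th percentile on all 4 arrays, those of Myd88 and Cd14. Tlr6 exceeded it on TCDD 2 and control 1, Tlr9 on TCDD 1, and the other 9 receptor probe sets on no array. Of the 58 probe sets of other genes in the pathway, 31 (53.4%) did, and of all 22626 probe sets 33.7% did. These shares describe the arrays and carry no test.

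**Figure D1:**
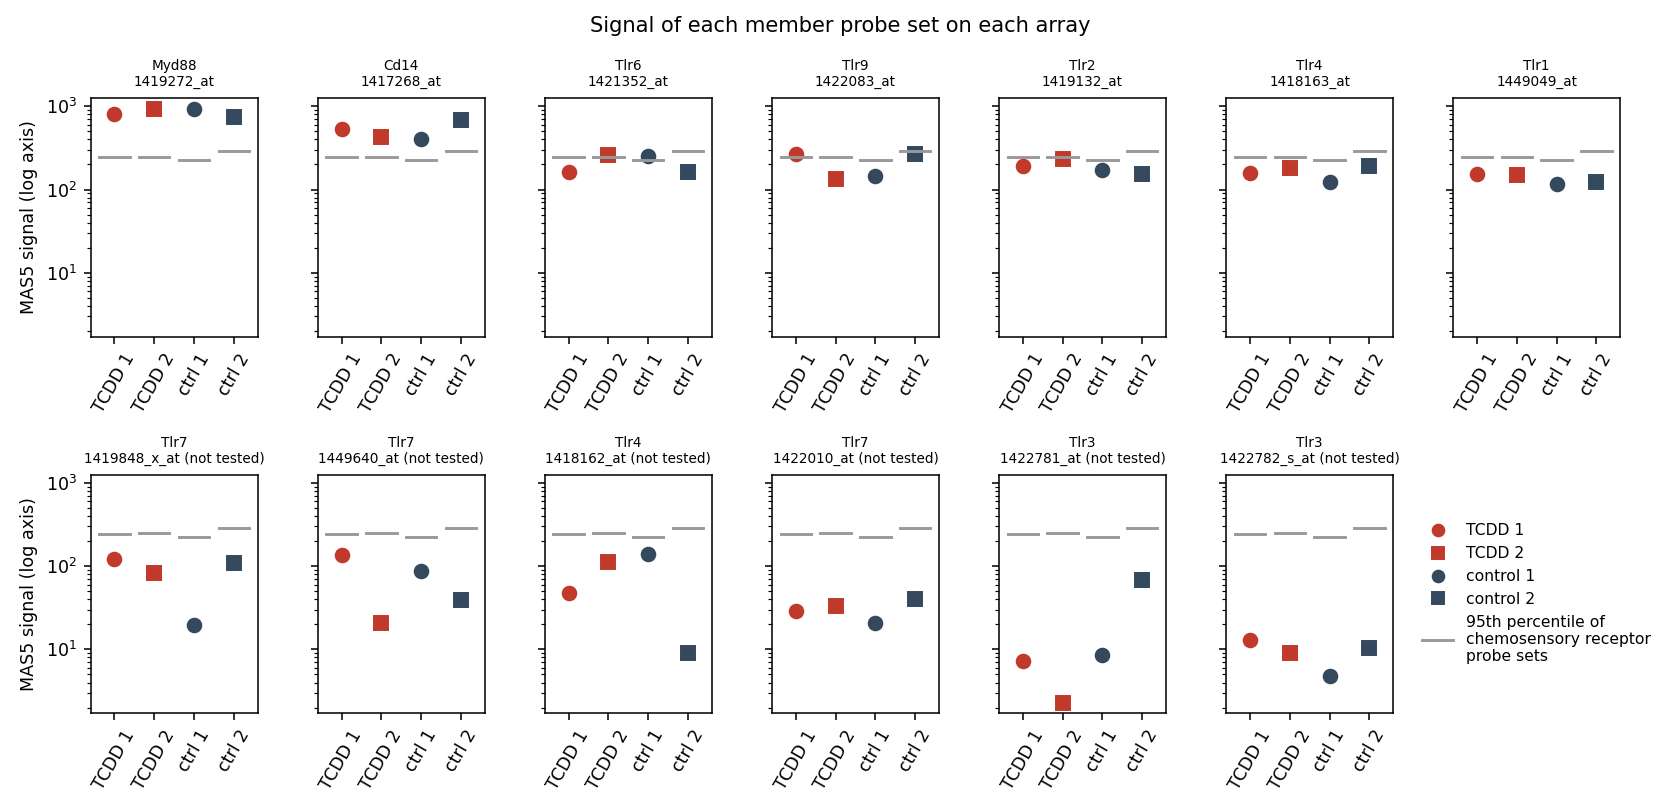
MAS5 signal (log axis) of each of the 13 member probe sets on each array, with TCDD in red and control in blue, circles for the preparation with no site named and squares for back skin. Grey bars mark the 95th percentile of 65 chemosensory receptor probe sets on that array; the points of Myd88 and Cd14 alone lie above all 4 bars.

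Promoter sequence is shown for Myd88, the adaptor with signals above the yardstick on all arrays, and for Tlr2, whose signal on both TCDD arrays lay above both controls. Windows of the 250 bases before each annotated start in RefSeq's table (GRCm38.p6) were searched on both strands. The 9 member windows covered 7 member genes, and Cd14 was left out of the search. The AhR core motif GCGTG was in 1 of the 9 member windows, that of Irak4, and in 28.2% of all 32851 windows. It was in neither sequence printed here. Capitals mark the GC box GGGCGG, the motif of Sp1, also searched on both strands. The GC box was in 3 of the 9 member windows, those of Irak4, Myd88 and Tlr2, and in 32.7% of all windows.
Tlr2, chr3:83841609-83841858, minus strand: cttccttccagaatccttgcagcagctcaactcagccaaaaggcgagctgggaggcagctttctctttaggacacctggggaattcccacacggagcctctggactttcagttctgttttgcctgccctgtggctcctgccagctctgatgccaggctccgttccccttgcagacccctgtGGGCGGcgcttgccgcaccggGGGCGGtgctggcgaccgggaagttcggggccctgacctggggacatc
Myd88, chr9:119340019-119340268, minus strand: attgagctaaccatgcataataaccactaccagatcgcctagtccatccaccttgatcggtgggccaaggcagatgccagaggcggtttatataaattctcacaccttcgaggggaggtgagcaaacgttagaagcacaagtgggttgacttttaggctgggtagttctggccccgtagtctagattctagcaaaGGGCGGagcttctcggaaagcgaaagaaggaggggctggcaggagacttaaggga
These matches describe letters in a window and do not show binding.

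The main comparison asked whether TCDD changed the level of these genes in Langerhans cells. A probe set was tested if its mean log2 signal reached the 40th percentile over all probe sets (6.85, a signal of 115), and 7 of the 13 member probe sets, 1 each for Tlr1, Tlr2, Tlr4, Tlr6, Tlr9, Myd88 and Cd14, did. In limma, with treatment and preparation as terms, 0 of these 7 passed an adjusted p of 0.05 for TCDD against control (adjusted p = 0.9999 for each), and 0 did at an unadjusted p under 0.05. Over all 13576 tested probe sets the share past the adjusted threshold was 0% and the share past the unadjusted one 1.47%. The standard errors of the members' log2 differences lay between 0.35 and 0.49, so a doubling lay inside the 95% intervals of all but Myd88 and Cd14, and a halving inside those of Tlr9 and Cd14. An exact permutation test of 2 arrays against 2 cannot go below a two-sided p of 0.333 for a single probe set.

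Tlr2 senses bacterial lipopeptides as the partner of TLR1 or TLR6. Its probe set 1419132_at read 191.3 and 232.4 on TCDD 1 and 2, against 170.6 and 154 on controls 1 and 2. Both TCDD arrays lay above both controls, with a log2 difference of 0.38 ± 0.39 (SE, n = 2 per group; 95% interval -0.51 to 1.27). The log2 ratio of TCDD to control was 0.59 in back skin and 0.17 with no site named.

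Tlr1 encodes the receptor that pairs with TLR2 for triacylated lipopeptides. Its probe set 1449049_at read 153.9 and 151.1 on the TCDD arrays, against 115.6 and 124.3 on the controls. The groups again did not overlap, and the log2 difference was 0.35 ± 0.44 (SE, n = 2 per group; -0.65 to 1.35), with ratios of 0.28 in back skin and 0.41 with no site named. Such an order, both TCDD arrays above both controls, held for 12.4% of all tested probe sets and for 2 of the 7 members, and the reverse order for 13.2% of all and 0 members. With each array left out in turn, the log2 difference ranged from 0.24 to 0.52 for Tlr2 and from 0.29 to 0.40 for Tlr1. The order of the arrays fixed the direction of these fits in advance.

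Tlr6, the partner of TLR2 for diacylated lipopeptides, split in another way. Its probe set 1421352_at read 163.1 on TCDD 1 and 263.2 on TCDD 2, against 255.4 on control 1 and 160.2 on control 2. Its log2 ratios were thus 0.72 in back skin and -0.65 with no site named, and the log2 difference over both was 0.03 ± 0.44 (SE, n = 2 per group; -0.96 to 1.03). Without control 2 it was -0.30 and without TCDD 2 -0.31.

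Tlr4, with MD-2 (the product of Ly96) and CD14, forms the sensor of bacterial lipopolysaccharide, and its 2 probe sets disagreed. The tested one, 1418163_at, read 156.7 and 182.1 on TCDD 1 and 2, against 124.1 and 190 on controls 1 and 2, a log2 difference of 0.14 ± 0.41 (SE, n = 2 per group; -0.80 to 1.08) that turned to -0.17 without control 1. The other, 1418162_at, fell below the filter and read 47.7 and 113 on the TCDD arrays, against 140.7 and 9.1 on the controls. Both groups overlapped for either probe set, and the second varied 15.5-fold between its highest and lowest array.

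Cd14, the protein that hands lipopolysaccharide to the TLR4 complex, read 528.5 and 428.3 on TCDD 1 and 2, against 409.2 and 691.1 on controls 1 and 2 (1417268_at). The highest and the lowest value were both controls, so the groups overlapped, and the log2 difference was -0.16 ± 0.38 (SE, n = 2 per group; -1.03 to 0.71). Its ratios were -0.69 in back skin and 0.37 with no site named, and without control 2 the difference turned to 0.22.

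Ly96 itself, outside the member list, read 764.4 and 765.7 on the TCDD arrays, against 475.2 and 800.5 on the controls. It exceeded the chemosensory yardstick on all 4 arrays, as Cd14 did, while neither Tlr4 probe set exceeded it on any array. The log2 difference of Ly96 was 0.31 ± 0.36 (SE, n = 2 per group), and without control 1 it was -0.07.

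Of the endosomal receptors among the members, Tlr9, which binds unmethylated CpG DNA, was the only one tested. Its probe set 1422083_at read 263.8 on TCDD 1 and 133.9 on TCDD 2, against 146.8 on control 1 and 265.4 on control 2. High and low arrays were thus 1 of each group, and the log2 difference was -0.07 ± 0.49 (SE, n = 2 per group; -1.19 to 1.05), with ratios of -0.99 in back skin and 0.85 with no site named. Without control 2 it was 0.36 and without TCDD 2 0.42.

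The same arrays stood out in other measures. Of the 7 measured T cell markers, 6 were higher on both TCDD 1 and control 2 than on TCDD 2 and control 1, as Tlr9 was; Cd3e, the CD3 epsilon chain, read 386.9 on TCDD 1 and 112.7 on TCDD 2, against 197.5 on control 1 and 471.3 on control 2. The actin 3′ to 5′ ratio was lower on TCDD 1 and control 2 than on the other arrays. The part of the T cell markers or RNA quality in the Tlr9 values was not tested, and in bulk RNA of sorted cells fewer cells of a type and less RNA per cell cannot be told apart. This order was also that of Cd207, at 5343 on TCDD 1 and 2155 on TCDD 2, against 2120 on control 1 and 7211 on control 2, and of H2-Eb1, the 2 of 9 Langerhans cell markers that had it. It held for 2 of 9 monocyte and granulocyte, 2 of 7 keratinocyte, 1 of 5 melanocyte and 0 of 6 B cell and plasmacytoid markers. The reverse order held for 2 monocyte and granulocyte, 2 keratinocyte and 1 Langerhans cell markers, and for 0 on the other lists. Over all tested probe sets the shares were 24.2% for this order and 18% for the reverse.

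**Figure D2:**
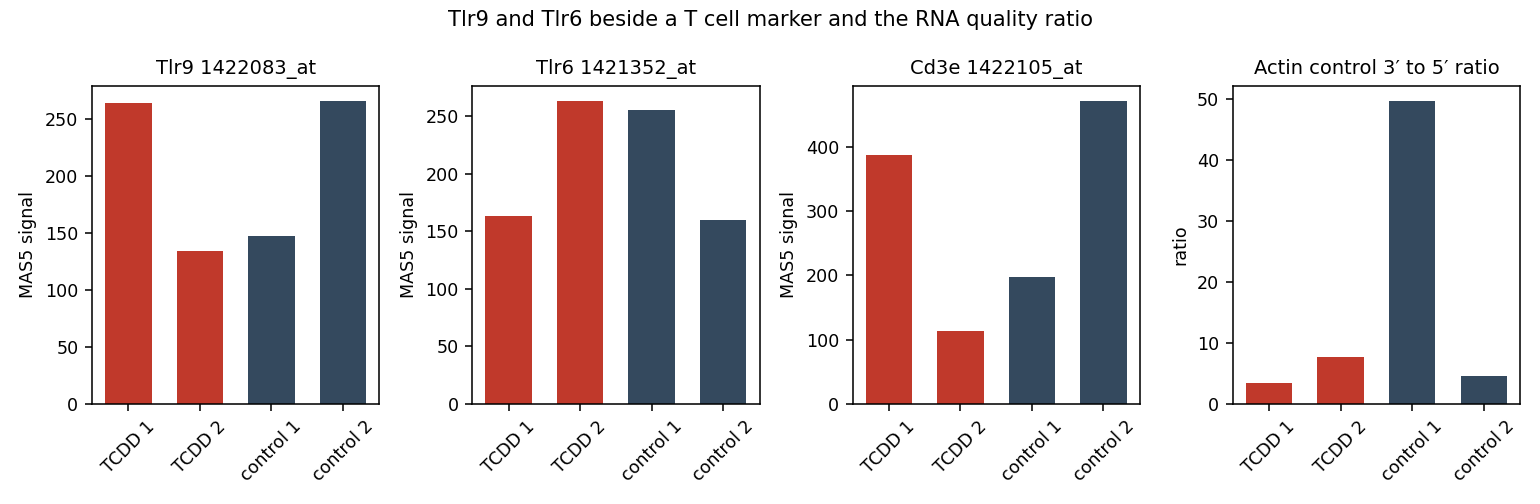
MAS5 signal of Tlr9, Tlr6 and the T cell marker Cd3e, and the 3′ to 5′ ratio of the actin control probe sets, on each array, with 1 bar per array (TCDD red, control blue). Tlr9 and Cd3e are highest on TCDD 1 and control 2, where Tlr6 and the actin ratio are lowest.

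Tlr3, a receptor for double-stranded RNA, was close to the bottom of the scale. Its probe set 1422781_at read 7.2 and 2.3 on the TCDD arrays, against 8.6 and 68.7 on the controls, and 1422782_s_at read 12.9 and 9.1 on the TCDD arrays, against 4.8 and 10.5 on the controls. Each was below the filter, and 7 of these 8 signals lay under 20.

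Tlr7, a receptor for single-stranded RNA, had 3 probe sets, all below the filter and all with overlapping groups. The signals of 1422010_at were 28.7 and 33.3 on the TCDD arrays, against 21 and 40.3 on the controls. Those of 1449640_at were 137.1 and 20.8 on the TCDD arrays, against 88.4 and 38.8 on the controls. A probe set whose _x_at suffix marks possible binding of other transcripts, 1419848_x_at, read 122.7 and 83.7 on the TCDD arrays, against 19.8 and 108.9 on the controls. Their lowest arrays differed, control 1 for 1419848_x_at and 1422010_at and TCDD 2 for 1449640_at.

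Myd88, the adaptor shared by the other receptors here except TLR3, varied least among the members. Its probe set 1419272_at read 809.8 and 933.4 on TCDD 1 and 2, against 914.7 and 741.9 on controls 1 and 2, so that its highest array was 1.26 times its lowest. The log2 difference was 0.08 ± 0.35 (SE, n = 2 per group; -0.72 to 0.88), with ratios of 0.33 in back skin and -0.18 with no site named, and it turned to -0.07 without control 2 and -0.02 without TCDD 2.

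**Figure D3:**
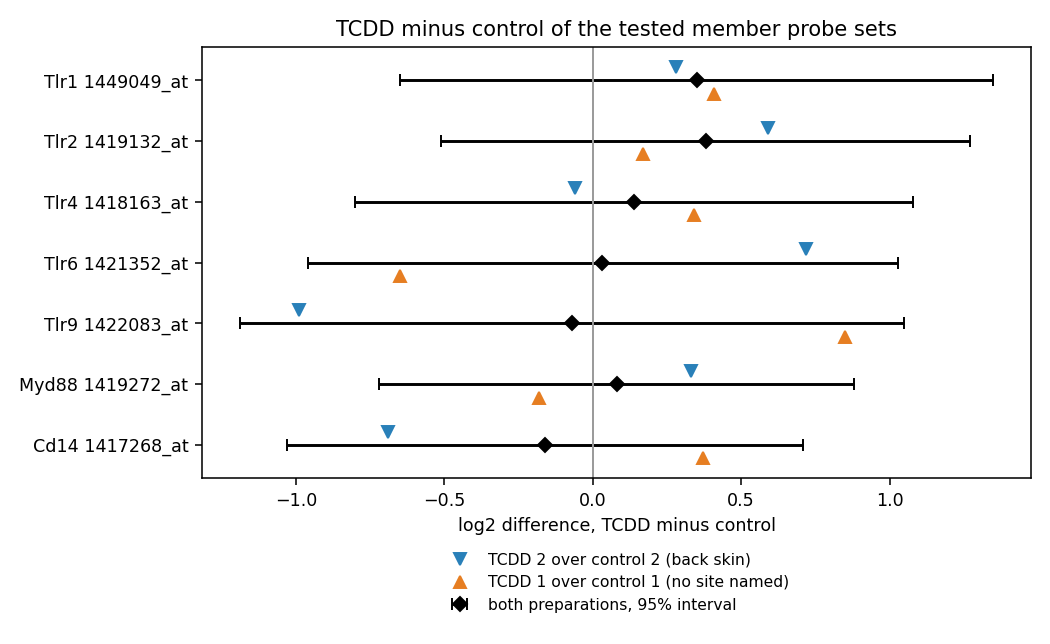
Log2 difference of TCDD minus control for the 7 tested member probe sets, with 95% intervals from limma (black diamonds), and the log2 ratios in back skin (blue) and with no site named (orange). Every interval includes 0, and the 2 ratios lie on opposite sides of 0 for 5 probe sets.

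Across the 7 tested members, 2 (Tlr1 and Tlr2) were higher on the TCDD array in both preparations, 0 were lower in both and 5 went opposite ways. Over all tested probe sets the shares were 19.3%, 21.3% and 59.3%. The members' median log2 difference was 0.08, beside -0.01 over all tested probe sets. Tlr9 and Cd14 were higher on both TCDD 1 and control 2 than on the other arrays, as were 24.2% of all tested probe sets, and Tlr6 and Myd88 were lower on both, as were 18% of all.

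The comparison of back skin with the preparation of no named site gave no member past the test either. For it 0 of 7 passed at an adjusted p under 0.05 (limma, adjusted p = 0.9994 for each) and 0 at an unadjusted p under 0.05, where the shares over all tested probe sets were 0% and 2.02%. The back skin minus no site log2 difference was widest for Tlr4 1418163_at, 0.42 ± 0.41 (SE, n = 2 per preparation), which was higher in back skin in the TCDD pair (0.22) and the control pair (0.61). Cd14 differed by 0.23 ± 0.38, with -0.30 between the TCDD arrays and 0.76 between the controls. The other 5 lay between -0.06 and 0.07.

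The rest of the pathway was read from a list of 42 further genes, of which 31 had a probe set. They covered 58 probe sets, 47 of them tested. Of the 47, 0 were higher and 0 lower after TCDD at an adjusted p under 0.05 in limma, and 0 passed at an unadjusted p under 0.05; their median log2 difference was 0. In both preparations 6 were higher and 11 lower after TCDD, and 30 went opposite ways. Over all tested probe sets these shares were 19.3%, 21.3% and 59.3%. Both TCDD arrays lay above both controls for 3 and below them for 6, beside 12.4% and 13.2% of all tested probe sets.

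**Figure D4:**
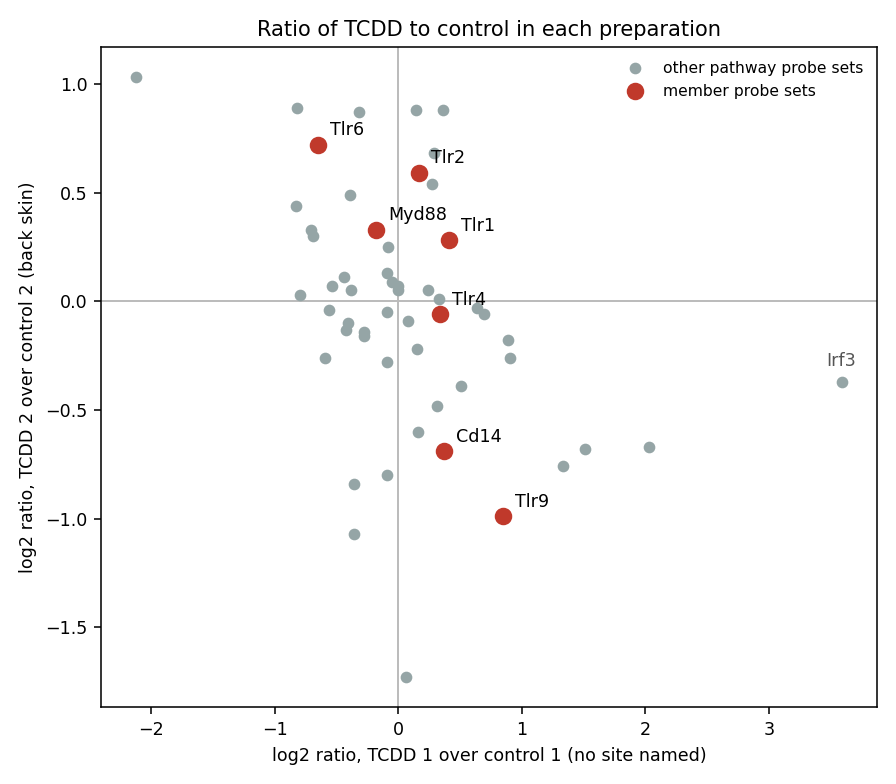
Log2 ratio of TCDD to control with no site named (horizontal axis, TCDD 1 over control 1) and in back skin (vertical axis, TCDD 2 over control 2), for the 7 tested member probe sets (red) and 47 tested probe sets of other pathway genes (grey). Of the members, 5 lie in the quadrants of opposite sign, and a probe set of Irf3 lies farthest out at 3.59 with no site named.

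Among the receptors of this list, Tlr5, which binds flagellin, read 338.9 and 303.6 on the TCDD arrays, against 238.1 and 396.5 on the controls. Tlr8, a relative of Tlr7, read 128 and 162 on the TCDD arrays, against 100 and 88.3 on the controls. Tlr5 exceeded the chemosensory yardstick on all 4 arrays and Tlr8 on none. Both TCDD arrays lay above both controls for Tlr8 (0.62 ± 0.48, SE, n = 2 per group), for Ly86, the MD-1 partner of the receptor-like protein RP105 (0.51 ± 0.37), and for probe set 1460231_at of Irf5, a transcription factor downstream of MyD88 (0.48 ± 0.34). These genes, with Tlr5, were named after their values were seen. So were 3 probe sets with both TCDD arrays below both controls. They were those of Cd180, the gene of RP105 (-0.22 ± 0.35), Map3k7 (1419988_at, -0.42 ± 0.34) and Tab2 (1423462_at, -0.26 ± 0.31). That order also held for probe sets of Unc93b1, Tirap and Irf5 given below.

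Unc93b1, which carries the endosomal receptors to their compartment, read 277.3 and 236.7 on the TCDD arrays, against 355.3 and 424.6 on the controls. Both TCDD arrays lay below both controls, with a log2 difference of -0.60 ± 0.35 (SE, n = 2 per group; limma adjusted p = 0.9999). Tirap, the adaptor that brings MyD88 to TLR2 and TLR4, had a probe set with the same order, 1457676_at, at 337.6 and 342 on the TCDD arrays, against 434.5 and 716.8 on the controls (-0.72 ± 0.36). Its other probe set, 1418685_at, overlapped, at 222.1 and 152.4 on the TCDD arrays, against 300.7 and 141.5 on the controls (-0.17 ± 0.39). With each array left out in turn, the log2 difference ranged from -0.73 to -0.47 for Unc93b1 and from -1.08 to -0.35 for 1457676_at. Groups that do not overlap fix the direction of these fits in advance.

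Of the kinase and ligase that act after MyD88, the kinase had only negative differences and the ligase had both signs. The 4 probe sets of Irak1, the kinase phosphorylated by IRAK4, differed by -0.83 ± 0.50 (1448668_a_at), -0.54 ± 0.63 (1438120_x_at), -0.27 ± 0.34 (1438857_x_at) and -0.09 ± 0.37 (1460649_at). The first read 269.1 on TCDD 1 and 61.1 on TCDD 2, against 257.9 and 202.5 on controls 1 and 2, so that 1 array was low. The second read 552.9 on TCDD 1 and 2062.7 on TCDD 2, against 2399.2 and 1009.5 on controls 1 and 2. Only for 1438857_x_at did the ratios of both preparations share a sign (-0.13 in back skin, -0.42 with no site named). Traf6, the ubiquitin ligase that IRAK1 engages, had 3 probe sets, which differed by -0.19 ± 0.38, 0.05 ± 0.42 and 0.03 ± 0.45.

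The 4 widest differences among the pathway probe sets were those of Irf3, the transcription factor that TRIF signalling activates, the Irak1 and Tirap probe sets 1448668_a_at and 1457676_at above, and Hsp90b1, the chaperone that folds Toll-like receptors. Irf3 1416898_a_at read 461.1 and 273.3 on the TCDD arrays, against 38.4 and 353.9 on the controls (1.61 ± 0.77, SE, n = 2 per group; limma adjusted p = 0.9999). The low value was that of control 1, whose 3′ to 5′ ratios were above those of the other arrays, and without control 1 the log2 difference was 0. Hsp90b1 1438040_a_at read 1083.9 and 577.3 on the TCDD arrays, against 265.3 and 921.3 on the controls (0.68 ± 0.57), and without control 1 it differed by -0.22. Without control 2, which leaves control 1 as the lone control, both passed (limma, adjusted p = 0.000122 for Irf3 and 0.0179 for Hsp90b1; up to 1 over the other alternatives); the part of RNA quality in these calls was not tested.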

How the data were processed

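Per the submitters' processing notes, which name affy and MAS5 without versions, the authors deposited linear MAS5 signal intensities. Per the labels, RNA was extracted with Trizol, then amplified by MessageAmp and biotinylated. The table held 22690 probe sets. The 64 Affymetrix controls were left out of the tests. Of the remaining 22626, 20380 had 1 symbol, 691 several and 1555 were unnamed here.

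With 2% of probe sets trimmed at either end, the mean signal was 500 on every array, and no further normalization was applied. Log2 signals of 13576 probe sets were fitted in limma 3.58.1 (R 4.3.3) by treatment plus preparation, with a mean-variance trend in eBayes and Benjamini-Hochberg adjustment over all tested probe sets at 0.05. Only 1 residual degree of freedom remains for a probe set before moderation. The number of arrays limits the precision, and the median SE was 0.364. The fit was tested on simulated data with independent noise and no preparation effect, which does not show how it performs on these arrays. Preparations were taken from the site labels. Arrays of 1 preparation did not deviate together (r = -0.18 across probe sets between the control and TCDD ratios of back skin to no site).

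The members and lists were chosen with earlier results of these data known. All member probe sets are named. Of the other pathway genes, the 4 probe sets with the largest log2 difference and Ly96, Tirap, Unc93b1, Irak1 and Traf6 are named by rule; Ticam1, also in the rule, had no probe set with 1 symbol. Marker genes were read from their probe set with the highest mean. Alternatives were quantile normalization, median centring, other filters, a floor, an offset of 50, no trend, no block, 1 probe set per gene and each array left out.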

Additional observations from a re-analysis of the deposited data

Results flagged for a closer look

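For 5 tested members the log2 ratio of TCDD to control had opposite signs in the 2 preparations, each with 1 array per group. The back skin ratio minus the ratio with no site named was -1.83 for Tlr9, 1.36 for Tlr6, -1.06 for Cd14, 0.51 for Myd88 and -0.40 for Tlr4 1418163_at. These differences were not tested, since no array is left to estimate their error, and 59.3% of all tested probe sets had opposite signs in this way. For Tlr4 the back skin ratio was -0.06, so its sign rests on a small value. No group held enough arrays for a check of single outlying samples.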

How the results depend on the processing

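The count of members past the adjusted threshold was 0 under each alternative run, for TCDD and for the preparation. Each TCDD difference of a member kept its direction under all alternatives that used the 4 arrays. Of those, only quantile normalization, median centring, the floor and the offset could move the difference itself. Directions turned when single arrays were left out, in fits that assume that a lone array varies like the others. For the TCDD difference these fits drop the preparation term. For the back skin difference they drop the treatment term, so those values are not adjusted for TCDD. Across these fits the TCDD minus control difference ranged from -0.17 to 0.44 for Tlr4, -0.31 to 0.38 for Tlr6, -0.56 to 0.42 for Tlr9, -0.07 to 0.23 for Myd88 and -0.54 to 0.22 for Cd14. The back skin difference ranged from -0.17 to 0.25 for Tlr1, -0.23 to 0.36 for Tlr2, -0.35 to 0.37 for Tlr6, -0.56 to 0.43 for Tlr9, -0.21 to 0.12 for Myd88 and -0.12 to 0.57 for Cd14. With 4 arrays it also turned for Tlr1 (-0.04 under quantile normalization, -0.02 under median centring) and Tlr6 (-0.04 and -0.05); the cause was not tested. Under these same scalings, 3 in place of 2 tested members had 1 sign in both preparations.

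Among pathway genes the ranges with an array left out were -0.22 to 1.58 for Hsp90b1, -0.07 to 0.69 for Ly96, -0.71 to 0.38 for Tirap 1418685_at, -0.48 to 0.09, -0.21 to 0.31 and -0.52 to 0.58 for Traf6 (1421376_at, 1421377_at and 1435350_at), and -1.90 to 0.24, -1.49 to 0.41, -0.55 to 0 and -0.36 to 0.19 for Irak1 (1448668_a_at, 1438120_x_at, 1438857_x_at and 1460649_at). The number past the test in this list ranged from 0 to 2, the 2 without control 2, and over all probe sets from 0 to 285, with 12 without control 1 and 285 without control 2.

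Leaving the preparation out (no replicate block) gave 0 calls over all probe sets, as did the fit with it. The crossed pairing as the block (control 1 with TCDD 2, control 2 with TCDD 1), chosen after seeing the data, gave 10 over all probe sets and 0 members. Under a filter at the 60th percentile 2 members were tested, and with no filter all 13. Signals near or under those of the chemosensory probe sets limit what can be said of all 7 receptors, Tlr6 and Tlr9 on some arrays and the others on all 4.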

Other observations

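Probe sets of 1 gene could differ in the size or direction of their difference. The 4 Irf3 probe sets are named here after their values were seen. Control 1 was the lowest array for 1426111_x_at, 1416898_a_at and 1438721_a_at, and TCDD 1 for 1435271_at. The values of 1426111_x_at lay close together, at 1070.5 and 1024.3 on the TCDD arrays, against 966.2 and 1190.5 on the controls (log2 difference -0.03 ± 0.35, SE, n = 2 per group). By contrast, 1416898_a_at was low on control 1 alone. The untested 1438721_a_at read 77.7 and 92.9 on the TCDD arrays, against 20.3 on control 1 and 113.6 on control 2, so control 1 was low there too. Probe set 1435271_at read 187.9 and 257.2 on the TCDD arrays, against 228.1 and 283.7 on the controls. Irf5 had 1 probe set above both controls on both TCDD arrays and another, 1449678_at, below them, at 281.5 and 298.8 on the TCDD arrays, against 299.1 and 521 on the controls. Hsp90b1 had another tested probe set, 1415889_a_at, also named after its values were seen. It read 1432 and 1002.2 on the TCDD arrays, against 1187.4 and 687.6 on the controls (0.41 ± 0.34). Its lowest array was control 2, and its ratios were 0.54 in back skin and 0.27 with no site named.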
